A study of Mus musculus with 12 samples.

Results

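Granzymes are serine proteases that cytotoxic lymphocytes store in secretory granules, and perforin is the pore-forming protein of the same granules. On contact with a target cell the granules are released, perforin opens the way into the target, and granzymes cleave proteins there. Granzyme A and granzyme B are the best studied members, and NK cells and CD8 T cells are the main lymphocytes that carry them. The genes described are the granzyme genes Gzma, Gzmb, Gzmc, Gzmd, Gzme, Gzmf, Gzmg, Gzmk and Gzmm, and Prf1, which encodes perforin. They were chosen by symbol and make up 10 of the 54232 genes of the count table. A further granzyme gene, Gzmn, was not in the set and had 1 count over all libraries.

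The transcripts were counted in NK cells and CD8 T cells from subcutaneous tumours of MC38 cells, a mouse colon adenocarcinoma line, taken 8 to 10 days after injection. The host mice were WT, lacked the kinase TYK2 (TYK2KO, called KO here), or carried the kinase-inactive TYK2 K923E (TYK2KE, called KE), all on a C57BL/6N background, sex- and age-matched and 6 to 12 weeks old, and no treatment was given. NK cells were gated as CD45+ CD3ε- NK1.1+ and CD8 T cells as CD45+ CD3ε+ CD8a+. Each of the 12 libraries came from 300 sorted cells, with 2 libraries for each cell type and genotype. TYK2 is a Janus kinase that passes on signals of interferons and of interleukin 12, cytokines known to act on granzyme and perforin genes. The germline mutations are carried by all cells of the host but not by the injected tumour cells. The sources used here do not say whether the 2 libraries of a group came from separate mice, so the spread between them may be partly technical. The p-values measure only this spread, taken for each gene over all groups together.

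Libraries held 10378761 to 14732882 counts and 12776 to 14015 genes with a count. Tyk2 transcripts did not separate the genotypes, with 48.3 to 86.1 counts per 1000000 (CPM) in WT, 56.3 to 105 in KO and 46.7 to 119 in KE libraries, so the counts do not check the genotype labels. The sort markers fitted the labels. The 7 NK cell markers summed to 4229 to 8031 CPM in NK and to 140 to 421 CPM in CD8 libraries, and the 9 T cell markers to 66.1 to 341 CPM in NK and 11147 to 15632 CPM in CD8 libraries. Both NK WT libraries and 1 NK KO library stood apart in macrophage and monocyte transcripts. The 11 markers of these cells summed to 9304 and 8606 CPM in NK WT, to 5358 and 24.2 CPM in NK KO, to 61.6 and 263 CPM in NK KE, and to between 49.9 and 396 CPM in the 6 CD8 libraries. All 11 markers had a count in both NK WT libraries and in the first NK KO library. The 7 mast cell and basophil markers summed to 30.7 to 170 CPM in NK and 0 to 59.5 CPM in CD8 libraries, nearly all of it from Kit, with Ms4a2 and Tpsb2 at 0 throughout. The 6 neutrophil markers summed to 6.36 and 6.94 CPM in NK WT and at most 3.19 CPM elsewhere, with S100a8 and S100a9 at 0 throughout.

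Of the 10 genes, 6 lie on the minus strand of chromosome 14 in GRCm38 within the granzyme cluster, in the order Gzme (56117626 to 56120625), Gzmd (56129556 to 56132608), Gzmg (56156582 to 56159579), Gzmf (56205263 to 56211417), Gzmc (56231441 to 56234656) and Gzmb (56258838 to 56262260), with Gzmn between Gzmg and Gzmf. Gzma (113093825 to 113100981) and Gzmk (113171608 to 113225908) lie near each other on the minus strand of chromosome 13. Gzmm (79689020 to 79695261) and Prf1 (61297833 to 61304680) lie on the plus strand of chromosome 10. All are protein coding, and counts were taken over their exons.

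The cluster genes are copies of one another, which bears on what a read of 50 bases can tell. The coding sequences of Gzmd and Gzme were 93.2% identical and those of Gzme and Gzmg 89.5%, whereas Gzmb and Gzmc were 75.9% and Gzmb and Gzmd 65.9% identical. The stretch below, bases 44 to 93 of the coding sequence in the GENCODE transcripts on GRCm38, is shown because a read from it cannot be placed in either Gzmd or Gzme. Capitals mark bases that differ from Gzmd.
Gzmd: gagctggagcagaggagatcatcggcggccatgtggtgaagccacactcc
Gzme: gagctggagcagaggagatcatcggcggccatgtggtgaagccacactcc
Gzmg: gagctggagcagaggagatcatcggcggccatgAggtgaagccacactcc
Gzmf: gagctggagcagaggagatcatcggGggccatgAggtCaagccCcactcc
Gzmc: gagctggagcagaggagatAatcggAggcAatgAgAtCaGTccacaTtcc
Gzmb: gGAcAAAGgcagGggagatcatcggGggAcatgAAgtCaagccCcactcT
Gzmg differed from Gzmd at 1 of these 50 bases, Gzmf at 4, Gzmc at 9 and Gzmb at 14. Over whole transcripts, every stretch of 50 bases was found in no other gene for Gzma, Gzmb, Gzmk, Gzmm and Prf1. That share was 95.9% for Gzmc, 80.6% for Gzmf, 80.2% for Gzmg, 79.4% for Gzme and 78.1% for Gzmd. The authors kept only reads with a single place in the genome, so Gzmd, Gzme, Gzmf and Gzmg may be undercounted, and reads in the shared part were not assigned to them. Gzmk overlaps Esm1 and Gzmf overlaps the pseudogene Gm4022, each on the other strand. Whether counting used strand is not given in the sources used here, so their reads may not be fully separable.

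The bases before the start sites of the cluster genes are printed because Gzmc, Gzmd, Gzme and Gzmf were all highest in the same CD8 library, while Gzmb was not. The sequences are the 150 bases before the RefSeq start on GRCm38.p6, minus strand, 5′ to 3′, at chr14:56262335-56262484 for Gzmb, chr14:56234658-56234807 for Gzmc, chr14:56132594-56132743 for Gzmd, chr14:56120626-56120775 for Gzme and chr14:56211408-56211557 for Gzmf. Capitals mark matches to any of 6 motifs searched on both strands: GAS (TTCNNNGAA, the interferon-activated STAT site), AP-1 (TGANTCA), the cyclic AMP response element (TGACGTCA), RUNX (TGTGGT), T-box (GGTGTGA) and the TATA box (TATAAA).
Gzmb: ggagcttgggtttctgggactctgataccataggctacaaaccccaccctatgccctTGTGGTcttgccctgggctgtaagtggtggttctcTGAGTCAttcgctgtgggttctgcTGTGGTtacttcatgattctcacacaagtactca
Gzmc: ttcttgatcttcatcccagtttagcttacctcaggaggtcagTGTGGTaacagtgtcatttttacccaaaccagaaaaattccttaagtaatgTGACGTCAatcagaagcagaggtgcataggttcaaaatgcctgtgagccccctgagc
Gzmd: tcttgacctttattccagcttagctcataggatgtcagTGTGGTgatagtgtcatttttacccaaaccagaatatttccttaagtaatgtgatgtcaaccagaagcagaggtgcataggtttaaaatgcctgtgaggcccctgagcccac
Gzme: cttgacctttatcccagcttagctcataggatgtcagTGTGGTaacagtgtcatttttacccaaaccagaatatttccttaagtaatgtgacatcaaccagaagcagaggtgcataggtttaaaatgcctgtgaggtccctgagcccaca
Gzmf: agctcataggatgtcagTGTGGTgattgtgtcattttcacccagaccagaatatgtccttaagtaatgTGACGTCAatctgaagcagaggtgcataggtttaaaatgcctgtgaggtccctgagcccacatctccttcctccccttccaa
Gzmb carried an AP-1 match 58 to 52 bases before its start and RUNX matches at 93 to 88 and at 34 to 29 bases. Gzmc and Gzmf held the cyclic AMP response element, at 57 to 50 and at 82 to 75 bases before the start. So did Gzmg, at 77 to 70 bases, with a RUNX match as well, although it had 0 counts in all libraries. At the matching place Gzmd differed from it by C4T and Gzme by G5A, with positions counted from the 5′ end of the motif. In the whole window of 250 bases before to 50 after the start, the RUNX letters were found in 9 of the 10 genes and in 16.8% of all 32851 windows of this length, and the cyclic AMP response element in 3 of 10 and in 1.79%. The cluster genes are copies, so these are not separate occurrences. GAS letters were found in Gzmb, 37 to 45 bases after the start, and in Gzmm (8.3% of all windows), AP-1 in Gzmb (7.81%), the T-box letters in Gzmk (3.98%) and the TATA letters in none of the 10 (13.6%). Matches are letters only and were not tested as sites.

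Together the 10 genes took 0.159% to 1.90% of a library's counts. Per kilobase of exon, NK cells of every genotype carried Gzma as the most abundant member, at 9330 ± 364 CPM per kb in WT, 7071 ± 173 in KO and 6109 ± 568 in KE (SD, n = 2, as for all levels below). Gzmb was next in NK WT, at 4139 ± 1042 CPM per kb, with its libraries clear of those of Gzma above it. Gzmc at 1227 ± 1034 and Prf1 at 920 ± 285 CPM per kb followed, and these overlapped. In CD8 T cells Gzmb had the highest mean in all genotypes, at 7606 ± 1798 CPM per kb in WT, 1818 ± 32.9 in KO and 2086 ± 1920 in KE, although Gzmc at 1844 ± 2586 CPM per kb overlapped it in KE and was above it in KE library 2 (3673 against 3444). In CD8 WT the order was then Gzma at 3214 ± 4196, Gzmk at 680 ± 132 and Prf1 at 280 ± 37.1 CPM per kb. The 2 CD8 WT libraries differed so much in Gzma that its place in this order was not fixed, while Gzmk and Prf1 did not overlap. In both mutants the CD8 libraries of Gzma overlapped those of Gzmk. Fewer cells with a transcript and less of it per cell cannot be told apart in these bulk libraries.

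**Figure D1:**
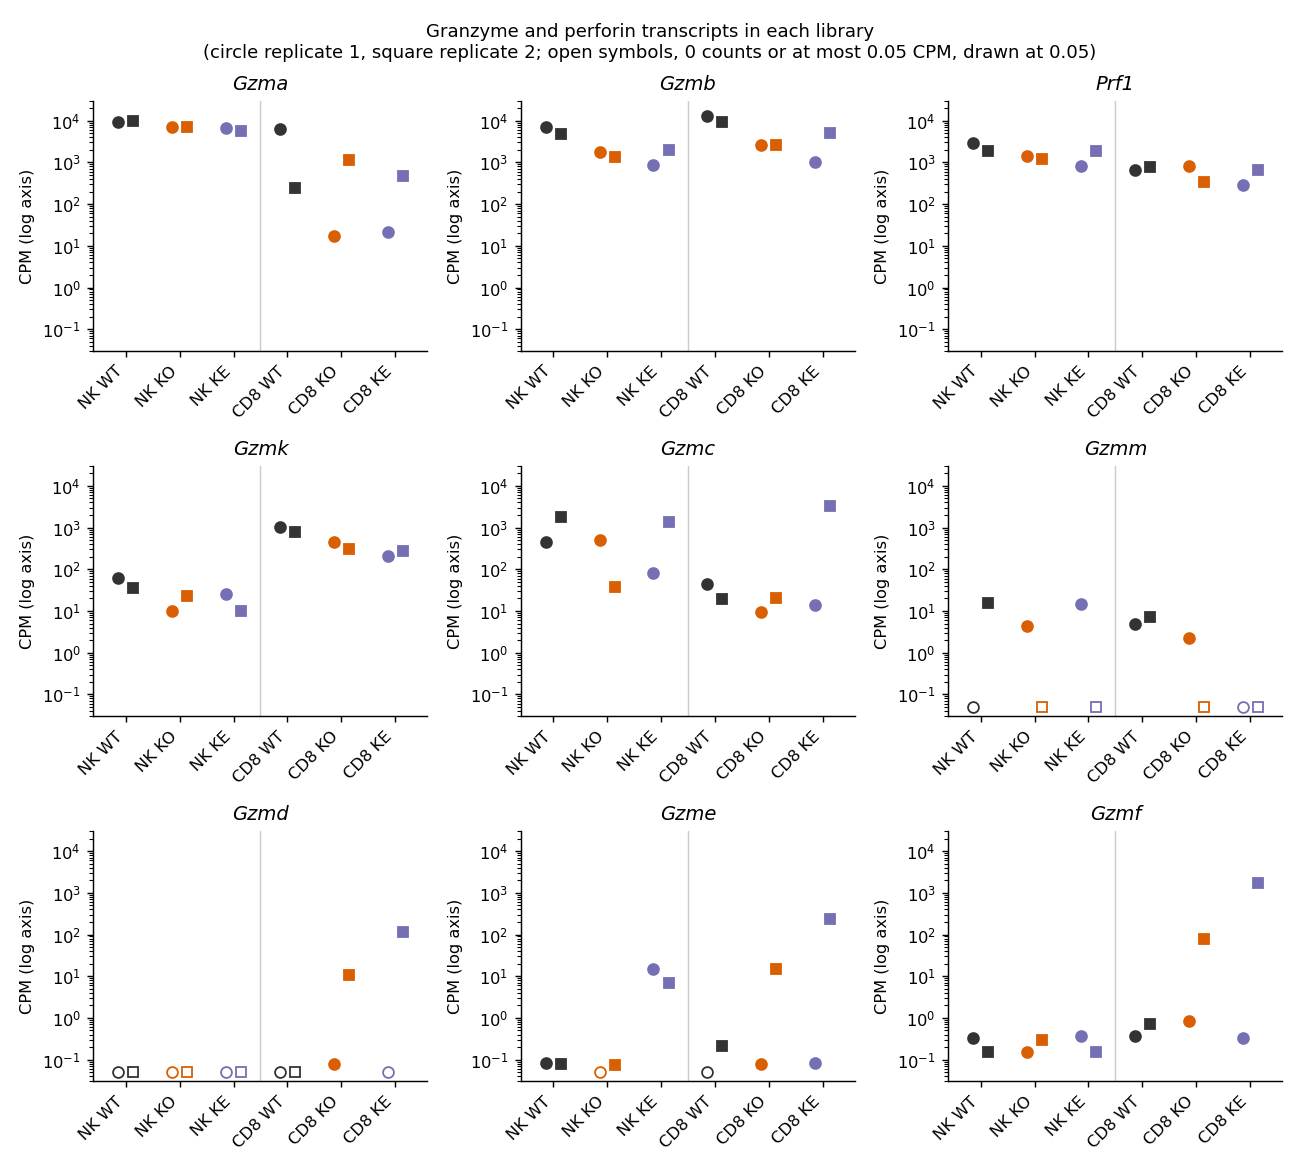
CPM of 9 members in each of the 12 libraries, on a log axis, by cell type and genotype (black WT, orange KO, purple KE, circle replicate 1, square replicate 2, open symbols at most 0.05 CPM). Gzmb and Gzmk lay lower in all mutant libraries than in the WT libraries of the same cell type, and Gzmd, Gzme and Gzmf were highest in 1 CD8 KE library.

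The libraries differed in which member made up their granzyme and perforin counts. Gzma made up 46.7% to 77.9% of the member counts in NK libraries, and Gzmb 42.1% to 83.0% in CD8 libraries. The CD8 KE library 2 was unlike all others, with 27.9% of its member counts from Gzmc. The count ratio of Gzma to Gzmb within a library, which does not depend on scaling between libraries, was 1.30 to 7.36 in the 6 NK libraries and 0.00665 to 0.488 in the 6 CD8 libraries. The cell types therefore did not overlap in this ratio. Of all other genes tested, 1.36% had a ratio to Gzmb that was higher in all NK than in all CD8 libraries. Within NK cells the ratio was 1.30 and 1.97 for WT, 3.89 and 5.39 for KO, and 7.36 and 2.93 for KE.

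**Figure D2:**
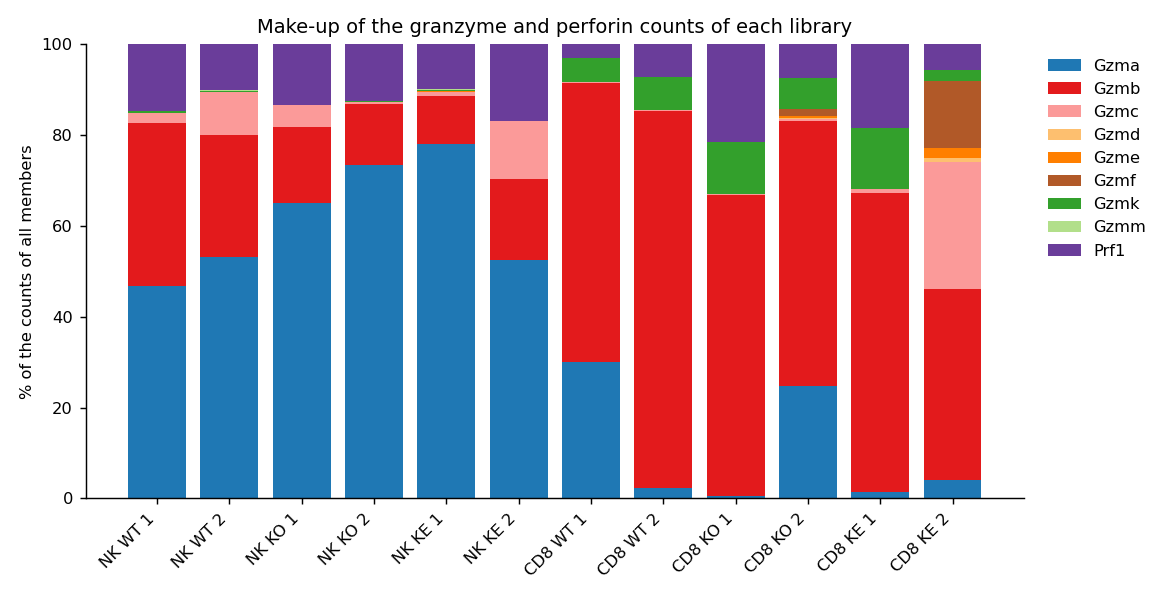
Share of each gene in the summed counts of all members, in percent, for each library. Gzma takes the most in every NK library and Gzmb in every CD8 library, and Gzmc stands out in CD8 KE library 2 at 27.9%.

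The first comparison asked how NK cells and CD8 T cells from MC38 tumours differed in these genes. Differences were tested with edgeR's quasi-likelihood test, and a gene was called at a Benjamini-Hochberg adjusted p under 0.05 over all 13279 genes tested with a change of 2-fold or more (1 on the log2 scale). Gzmk, a tryptase of the granzyme family, was higher in CD8 T cells and Prf1 was higher in NK cells. Gzmk stood at 61.5 and 35.8 CPM in NK WT against 1056 and 801 CPM in CD8 WT. The KO libraries held 10.0 and 22.5 CPM in NK against 443 and 305 CPM in CD8, the KE libraries 25.1 and 9.96 CPM against 212 and 282 CPM. The cell types did not overlap in any genotype. Averaged over genotypes, Gzmk was 18.4-fold higher in CD8 T cells (log2 fold change NK over CD8 -4.20, SE 0.32, edgeR adjusted p = 4.0e-05). The log2 difference was -4.26 in WT, -4.52 in KO and -3.82 in KE, with edgeR adjusted p-values of 0.00516, 0.00417 and 0.0110. The call was lost in WT without NK WT library 2 and in KE without NK KE library 2, while the averaged call held without any library.

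Prf1 stood at 2897 and 1855 CPM in NK WT, 1441 and 1234 in NK KO and 834 and 1847 in NK KE. In CD8 T cells it was 655 and 791 CPM for WT, 839 and 340 for KO and 294 and 670 for KE. All NK libraries but the first KE one lay above every CD8 library. Averaged over genotypes Prf1 was 2.75-fold higher in NK cells (log2 1.46, SE 0.29, edgeR adjusted p = 0.0172). Within a genotype the difference was 1.72 in WT, 1.18 in KO and 1.48 in KE on the log2 scale and was not called by edgeR, with adjusted p of 0.234, 0.497 and 0.340, while DESeq2 called it in WT and KE. The averaged call was lost without NK WT library 1, NK KE library 2 or CD8 WT library 1, with edgeR adjusted p of up to 0.0598.

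Of the 9 members tested (Gzmg had 0 counts in all libraries), 1 was thus higher in NK cells and 1 in CD8 T cells on average, where 1.97% and 2.5% of all genes were called in these directions. The median log2 difference was -0.89 over the members and 0.03 over all genes. In WT, KO and KE taken alone, 1 member (Gzmk) was called higher in CD8 T cells each time, beside 0.429%, 0.58% and 0.369% of all genes. None was called higher in NK cells by edgeR, beside 0.346%, 0.324% and 0.331% of all genes. In that direction 1 member had an unadjusted p under 0.05 in each genotype, beside 5.46%, 4.32% and 4.56% of all genes. DESeq2 called 2, 4 and 4 members in either direction in these comparisons, beside 7.13%, 7.1% and 7.06% of the genes it gave an adjusted p. Averaged over genotypes DESeq2 called 6 members and 1589 genes in either direction.

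Gzma, Gzmb and Gzmc did not pass the edgeR test between cell types. Gzma, a tryptase, was at 9127 and 9645 CPM in NK WT, 6991 and 7237 in NK KO and 6549 and 5742 in NK KE. CD8 libraries held 6218 and 248 CPM for WT, 17.1 and 1125 for KO, and 21.2 and 472 for KE. The NK libraries thus lay close together while the CD8 libraries of one group differed by up to 65.6-fold. The averaged log2 difference was 3.27 with an SE of 1.12 (edgeR adjusted p = 0.148). It ran from 2.95 to 4.95 when 1 library was left out, and DESeq2 called it (log2 3.29, adjusted p = 0.0121). Gzmb, whose product cleaves after aspartate and activates caspases, differed by -0.89 (SE 0.33, edgeR adjusted p = 0.165), and was called higher in CD8 T cells only without CD8 KE library 1 (log2 -1.14, edgeR adjusted p = 0.0177). Its CPM were 7001 and 4886 in NK WT and 12748 and 9097 in CD8 WT, without overlap, whereas the KE libraries of the cell types overlapped (890 and 1963 in NK, 1045 and 4945 in CD8). Gzmc differed by 2.704 (SE 1.20, edgeR adjusted p = 0.263) and was called higher in NK cells without CD8 KE library 2 (log2 4.998, edgeR adjusted p = 0.0391).

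The second question was how loss of TYK2 or of its kinase activity bore on these genes within a cell type. Gzmb was lower in all 8 mutant libraries than in the WT libraries of the same cell type. NK libraries held 7001 and 4886 CPM for WT, 1797 and 1343 for KO, and 890 and 1963 for KE. CD8 libraries held 12748 and 9097 CPM for WT, 2578 and 2645 for KO and 1045 and 4945 for KE. WT did not overlap with the mutants in either cell type, while KO and KE overlapped in both. On the log2 scale the difference from WT was -1.92 (SE 0.59) for KO and -2.06 (SE 0.59) for KE in NK cells, and -2.06 (SE 0.59) for KO and -1.87 (SE 0.59) for KE in CD8 T cells. Their unadjusted p-values in edgeR were 0.00829, 0.00570, 0.00562 and 0.00961, and the adjusted ones 0.659, 0.549, 0.829 and 0.666, so edgeR called none alone. DESeq2 called the KE difference in NK cells (log2 -2.09, adjusted p = 0.0482). Leaving out 1 library moved the KE difference between -3.39 and -1.14 in CD8 and between -2.73 and -1.60 in NK cells, and the KO difference between -2.29 and -1.80 in CD8 and between -2.18 and -1.64 in NK cells.

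**Figure D3:**
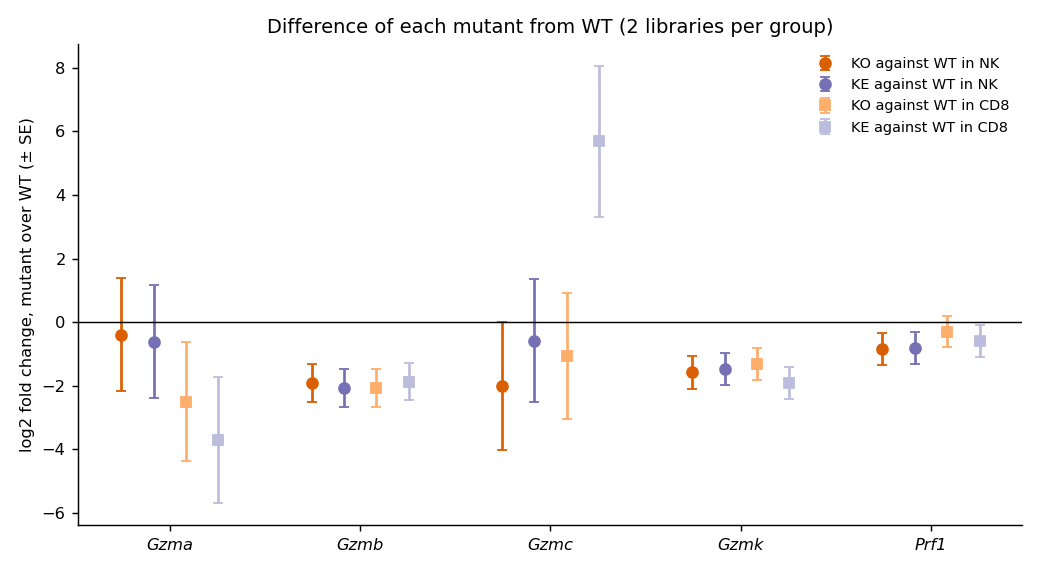
Log2 fold change of KO and KE against WT in NK and CD8 T cells (points) with its SE (bars) for 5 members, 2 libraries per group. The 4 values of Gzmb lie between -2.06 and -1.87, while the SE of Gzma and Gzmc are 1.78 to 2.37.

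With both mutants pooled Gzmb was 3.97-fold lower in NK cells (log2 -1.99, SE 0.48, edgeR adjusted p = 0.218) and 3.91-fold lower in CD8 T cells (log2 -1.97, SE 0.48, edgeR adjusted p = 0.274). DESeq2 gave adjusted p-values of 0.0163 and 0.0220 and called both. Averaged over both cell types, a comparison of 8 mutant with 4 WT libraries that was added after the values were seen, Gzmb was 3.94-fold lower (log2 -1.98, SE 0.34, edgeR adjusted p = 0.0360). DESeq2 called 4 members and 449 genes in that comparison, and edgeR called 1 member, Gzmb, beside 0.429% of all genes. That call held without NK KO library 1, CD8 KE library 1 or CD8 KE library 2, and was lost when any 1 of the 9 other libraries was left out, with edgeR adjusted p of up to 0.184. The difference stayed between -2.36 and -1.80 throughout. KO and KE differed by 0.14 (SE 0.57) in NK and by -0.20 (SE 0.57) in CD8 T cells on the log2 scale. These errors leave room for a 2-fold difference between the mutants in either direction.

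Gzmk, at a much lower level in NK cells, was below WT in the same way. With both mutants together it was 2.88-fold lower in NK cells (log2 -1.53, SE 0.41, edgeR adjusted p = 0.284) and 3.06-fold lower in CD8 T cells (log2 -1.61, SE 0.41, edgeR adjusted p = 0.309). DESeq2 called both, with adjusted p of 0.0228 and 0.0138. Averaged over cell types the log2 difference was -1.57 (SE 0.29) and just missed the threshold in edgeR (adjusted p = 0.0538). It was called with RLE size factors (edgeR adjusted p = 0.0467), and without NK KO library 2 or NK KE library 1. Gzmb and Gzmk were the members whose mutant libraries all lay below both WT libraries in NK and in CD8 T cells, a pattern that 1.57% of all genes tested showed.

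Prf1 differed less. With both mutants together its log2 difference was -0.83 (SE 0.42) in NK and -0.44 (SE 0.43) in CD8 T cells, with edgeR adjusted p of 0.621 and 0.960. Its mutant and WT libraries overlapped in CD8 T cells, since KO library 1 at 839 CPM was above both WT libraries. The count ratio of Gzmb to Prf1 within a library separated WT from the mutants without scaling between libraries. It was 2.42 and 2.63 in NK WT, 1.25 and 1.09 in NK KO, and 1.07 and 1.06 in NK KE. Among CD8 libraries it was 19.5 and 11.5 for WT, 3.07 and 7.77 for KO, and 3.55 and 7.38 for KE. All mutant libraries were below both WT libraries of their cell type, as was the ratio to Prf1 of 0.377% of all other genes tested. The ratio was picked after its values were seen and has no test.

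**Figure D4:**
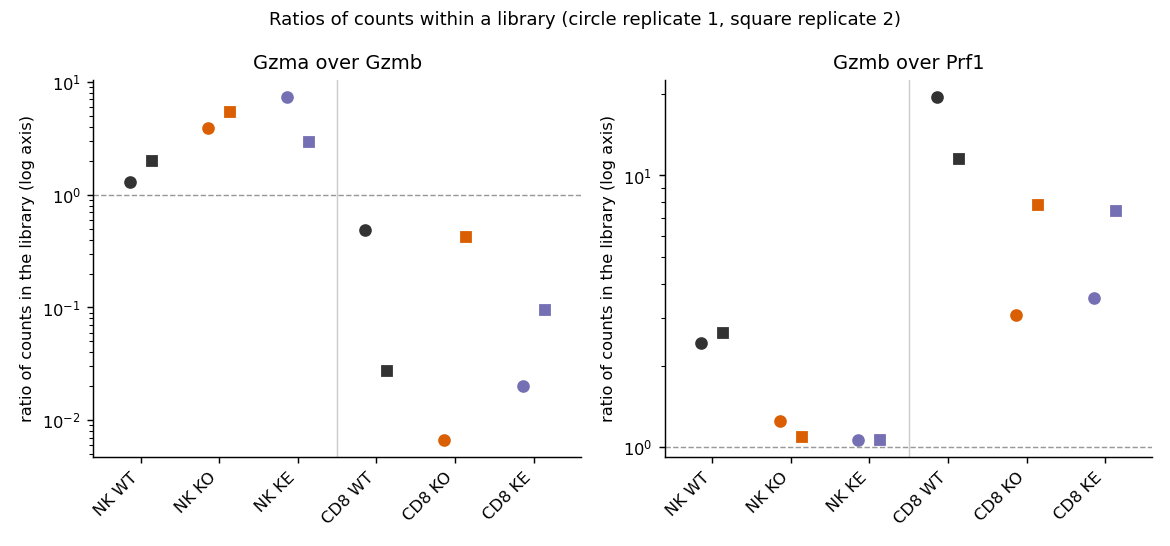
Count ratios Gzma over Gzmb (left) and Gzmb over Prf1 (right) in each library, log axes (black WT, orange KO, purple KE, circle replicate 1, square replicate 2). The left ratio is above 1 in all NK and below 1 in all CD8 libraries, and the right ratio is lower in every mutant library than in the WT libraries of that cell type.

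Among the other members, 4 of 9 in NK cells (Gzma, Gzmb, Gzmk and Prf1) and 3 of 9 in CD8 T cells (Gzmb, Gzmk and Gzmm) had all 4 mutant libraries below both WT libraries, beside 10.8% and 7.49% of all genes. The margin of Prf1 in NK cells was thin, 1855 CPM in the lower WT against 1847 CPM in the highest mutant library. Gzma in NK cells differed from WT by -0.51 (SE 1.51) on the log2 scale and in CD8 T cells by -3.11 (SE 1.49), with edgeR adjusted p of 1.00 and 0.747. The fit takes the spread of a gene over all 12 libraries. The SE of Gzma in NK cells therefore includes the wide spread of its CD8 libraries, while its NK libraries lay close together. The CD8 difference of Gzma rested on WT library 1 at 6218 CPM, and without that library it turned to 0.60.

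No member was called by edgeR in any genotype comparison within a cell type. Against WT, the share of all genes called in NK cells was 0% for KO and 0% for KE, and 0% separated KO from KE. The corresponding shares in CD8 T cells were 0.0527%, 0.0828% and 0%. Pooling the mutants gave 0.0301% in NK cells and 0.203% in CD8 T cells. Members with an unadjusted p under 0.05 in edgeR numbered 2, 3 and 1 in NK, beside 6.3%, 6.01% and 3.8% of all genes, and 2, 5 and 1 in CD8 T cells, beside 4.82%, 5.56% and 3.62%. With the mutants pooled they numbered 2 in NK, beside 9.04% of all genes, and 4 in CD8 T cells, beside 6.72%. DESeq2 called 0, 1 and 0 members in NK, beside 3.2%, 3.33% and 1.66% of the genes it gave an adjusted p, and 1, 4 and 1 in CD8 T cells, beside 1.96%, 2.82% and 1.42%. With the mutants pooled DESeq2 called 2 members in NK, beside 3.87%, and 5 in CD8 T cells (Gzmb, Gzmk, Gzmd, Gzme and Gzmf), beside 2.86%. The last 3 of these came mostly from 1 CD8 library of each mutant, as described below. The median log2 difference of both mutants from WT was -0.83 over the members and -0.05 over all genes in NK cells, while CD8 T cells gave -0.44 and 0.

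The mutant effects were also compared between the cell types. For Gzmb the KO effect in NK minus that in CD8 T cells was 0.14 (SE 0.81) on the log2 scale, and the KE effect -0.19 (SE 0.81), with edgeR adjusted p of 1.00 for both. No member was called by edgeR, and the share of all genes called was 0.00753% for KO and 0% for KE. At an unadjusted p below 0.05 there were 0 members, beside 5.29% of all genes for KO and 6.19% for KE. DESeq2 called 1 member in each, Gzmd, which was at 0 in all NK libraries, beside 1.56% and 2.45% of the genes it gave an adjusted p. At this spread a 2-fold difference between the cell types in the effect on Gzmb would not have been detectable.

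Some transcripts of other cell types and of dividing cells moved with the genotype, while others overlapped between WT and mutants. The marker sum was 9304 and 8606 CPM in NK WT and at most 263 CPM in 3 of the 4 mutant libraries, and its part in the NK differences was not tested. The first NK KO library held 5358 CPM of these markers with Gzmb at 1797 CPM, and the second held 24.2 CPM with Gzmb at 1343 CPM. The 7 NK cell markers summed to 4229 and 5135 CPM in NK WT and to between 5403 and 8031 CPM in the NK mutants, without overlap, and the 9 T cell markers to 66.1 and 113 against 91.3 to 341 CPM, with overlap. The 8 cell cycle markers summed to 250 and 122 CPM in NK WT and to 77.97, 20.99, 46.1 and 24.2 CPM in the NK mutants, with all 8 lower on average and 1, Birc5, called lower (log2 -6.00, edgeR adjusted p = 0.0294). The CD8 sums of macrophage markers were 190 and 178 CPM in WT and 49.9 to 396 CPM in the mutants, with overlap, and their part in the CD8 difference of Gzmb was not tested. The CD8 sums of cell cycle markers were 1138 and 1791 CPM in WT and 527 to 1690 CPM in the mutants, also with overlap. Trdc, the 1 gamma-delta T cell marker of 4 that was matched, had 10.6 and 12.8 CPM in CD8 WT and 0.0830 to 0.248 CPM in the CD8 mutants, and was called lower there (log2 -5.86, edgeR adjusted p = 0.000898). In the NK libraries, gated as CD3ε-, Trdc stood at 113 to 314 CPM, so its level alone does not show gamma-delta T cells. The part of NK cell, T cell, cell cycle and gamma-delta transcripts in the Gzmb differences was not tested.

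**Figure D5:**
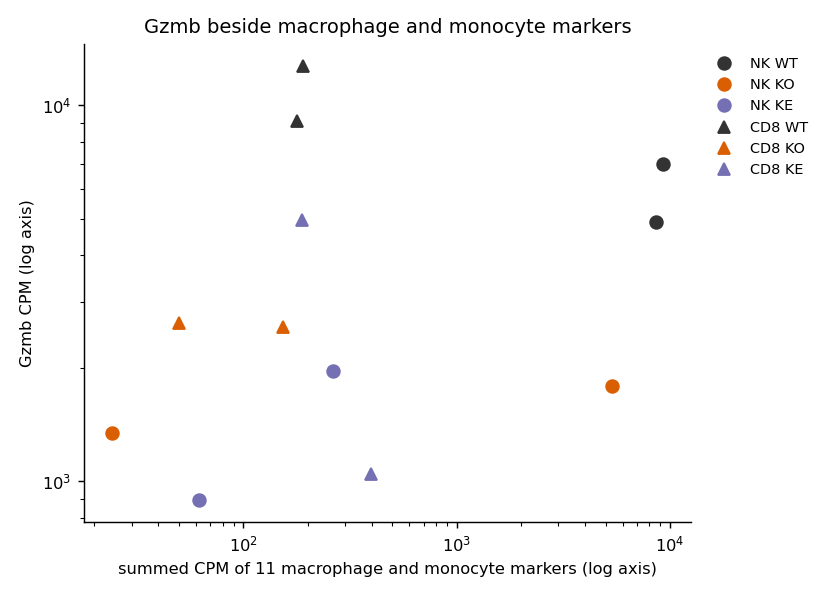
Gzmb CPM against the summed CPM of 11 macrophage and monocyte markers in each library, both axes log (circles NK, triangles CD8, black WT, orange KO, purple KE). Both NK WT libraries and 1 NK KO library stand to the right, at 5358 to 9304 CPM. In CD8 T cells Gzmb is higher in WT than in the mutants, with markers at 190 and 178 CPM in WT and 49.9 to 396 CPM in the mutants.

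Gzmc, Gzmd, Gzme and Gzmf, the cluster genes beside Gzmb, varied widely between libraries of some groups. Gzmc had 444 and 1750 CPM in NK WT, 513 and 36.8 in NK KO, and 80.6 and 1388 in NK KE. The CD8 libraries held 44.3 and 19.6 CPM in WT, 9.72 and 20.7 in KO, and 13.97 in KE library 1 against 3284 in KE library 2. The 2 libraries of a group thus differed by up to 235-fold. KE differed from WT in CD8 T cells by 5.69 (SE 2.37, edgeR adjusted p = 0.792) on the log2 scale, and by -1.19 without KE library 2.

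Gzmd, Gzme and Gzmf were near or at 0 in most libraries and appeared together in 2 of them. In CD8 KE library 2 they reached 118, 234 and 1752 CPM (1611, 3192 and 23922 counts), and in CD8 KO library 2 they reached 10.7, 14.8 and 76.1 CPM (129, 178 and 917 counts). In the 4 other CD8 libraries none exceeded 11 counts. Gzmd had 0 counts in all 6 NK libraries, which allows up to 0.289 CPM in the shallowest of them. Gzmf had 2 to 4 counts in each NK library. Gzme had 162 and 93 counts in the NK KE libraries and at most 1 in the other NK libraries. So Gzme was higher in the NK KE libraries than in the other NK libraries while Gzmd and Gzmf were not, but all 3 were above their level in the other CD8 libraries in the 2 CD8 libraries named. Gzmf lay above Gzme and Gzme above Gzmd in both of those libraries. In CD8 T cells 1 library of each mutant carried these transcripts and the other did not, and none of the 3 was called by edgeR for KO or KE there, while DESeq2 called Gzmd for KO and all 3 for KE. In NK cells Gzme was in both KE libraries with at most 1 count in the other NK libraries, and was not called either (KE against WT, edgeR adjusted p = 0.824).

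CD8 KE library 2 was also low in the summed cell cycle markers, at 527 CPM against 1138 to 1791 CPM in the other CD8 libraries. Its T cell markers summed to 14964 CPM, within the range of the others, and its NK cell markers to 421 CPM, the highest of the CD8 libraries. The part of these in the cluster transcripts was not tested. Without this library Gzmb in CD8 T cells was called lower in both mutants together (log2 -2.72, edgeR adjusted p = 0.0179).

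Gzmm was low, with 0 counts in 6 of 12 libraries. It was 0 and 15.7 CPM in NK WT, 4.46 and 0 in NK KO, and 14.5 and 0 in NK KE. The CD8 libraries had 4.89 and 7.04 CPM in WT, 2.30 and 0 in KO and 0 in both KE libraries. The NK groups each had 1 library at 0, and no difference was detectable. Gzmg had 0 counts everywhere.

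The granule and its partners are described from lists chosen by known function. Of 19 tested genes for granule proteins, sorting and release, 2 were higher in NK cells and 0 in CD8 T cells by edgeR on average, beside 1.97% and 2.5% of all genes. These were Lamp1 (log2 1.07, SE 0.17, edgeR adjusted p = 0.00436) and Lamp2 (log2 1.25, SE 0.21, edgeR adjusted p = 0.00628), which encode membrane proteins of lysosomes and granules. All 11 macrophage and monocyte markers were also higher in NK libraries on average (median log2 4.03, 2 called), and their part in these differences was not tested. Srgn, which encodes the proteoglycan serglycin that binds granzymes in the granule, differed by -0.22 (SE 0.11) and stood at 1289 to 1763 CPM in NK and 1519 to 2289 CPM in CD8 libraries. Lamp1 fell under the 2-fold limit without NK KO library 1 or NK KE library 2 (lowest log2 difference 0.92). The median log2 difference over the list was 0.06.

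Ctsc encodes cathepsin C, the protease that trims granzymes to their active form. It was 1511 and 1704 CPM in NK WT, 470 and 373 in NK KO and 258 and 283 in NK KE, without overlap. CD8 libraries of WT held 424 and 289 CPM, those of KO 507 and 288, and those of KE 348 and 334, with overlap. With both mutants together Ctsc was lower in NK cells (log2 -2.25, SE 0.23, edgeR adjusted p = 0.0232), the 1 gene of the 19 called in this comparison, beside 0.0301% of all genes. This call was lost without either NK WT library or either NK KE library, with edgeR adjusted p of up to 0.155 and a difference of -2.34 to -2.18. The CD8 difference was 0.05 (SE 0.24). In WT it was higher in NK than in CD8 T cells (log2 2.17, SE 0.29, edgeR adjusted p = 0.00584). Ctsc is also a gene of macrophages, and the marker sums given above moved with it in NK WT. In the first NK KO library Ctsc was at 470 CPM with markers at 5358 CPM. The part of these cells in the NK difference was not tested.

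Lamp2 was lower in both mutants averaged over cell types (log2 -1.30, SE 0.21, edgeR adjusted p = 0.0316), in the comparison added later, and that call was kept without NK KO library 1 or CD8 KO library 2 and lost without any 1 of the 10 others (edgeR adjusted p of up to 0.171). It was 336 and 296 CPM in NK WT, 168 and 165 in NK KO, 106 and 75.1 in NK KE, 142 and 109 in CD8 WT, 34.5 and 64.8 in CD8 KO, and 58.9 and 54.8 in CD8 KE. Mutant and WT libraries did not overlap in either cell type. The macrophage marker sums were higher in NK WT as well, and their part in the NK values of Lamp2 was not tested. Srgn differed by -0.14 (SE 0.11) in that comparison.

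Cytotoxic cells shield themselves with serpins that inhibit granzymes. The 5 serpin genes listed here were not tested for action on mouse granzymes. Of these, Serpinb1a was higher in CD8 T cells on average (edgeR adjusted p = 0.0140) and lower in mutant NK cells (edgeR adjusted p = 0.0363). The first call was lost without CD8 WT library 1 or CD8 KE library 1 (edgeR adjusted p of up to 1.00), and the second without either NK WT library, either NK KE library or NK KO library 2 (edgeR adjusted p of up to 0.179). In the comparison of mutants with WT averaged over cell types, added later, Serpinb1a was called lower (edgeR adjusted p = 0.00399) and stayed so without any 1 library (up to 0.0313). Serpinb1a had 41.5 and 22.4 CPM in NK WT and 0 to 0.0749 CPM in the 4 mutant NK libraries. The macrophage and neutrophil marker sums were also highest in NK WT, and their part in this difference was not tested. CD8 libraries stood at 127 and 108 CPM for WT, 29.2 and 32.5 for KO, and 0.165 and 0 for KE, with an edgeR adjusted p of 0.0619 for both mutants together. Serpinb9, the inhibitor of granzyme B, was 662 to 2688 CPM in all libraries and was called higher in NK cells in KE (log2 1.44, SE 0.24, edgeR adjusted p = 0.0267). In both mutants together it differed by -0.26 (SE 0.20) in NK and -0.42 (SE 0.20) in CD8 T cells.

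Of 17 transcription factors of cytotoxic lymphocytes, Nfil3, which NK cell development needs, was higher in NK cells on average (log2 1.10, SE 0.24, edgeR adjusted p = 0.0219), a call kept without NK KO library 2 or CD8 KE library 2 and lost without any 1 of the 10 others (edgeR adjusted p of up to 0.0696). Irf4, induced through the T cell receptor, was higher in CD8 T cells (edgeR adjusted p = 0.000260), with 39.5 to 145 CPM there and at most 1.23 CPM in NK libraries. Tbx21, which encodes T-bet, differed by 0.70 (SE 0.22) and Eomes by 3.34 (SE 0.92), and neither was called. None of the 17 was called by edgeR with both mutants against WT in NK or in CD8 T cells, where 3 and 2 had an unadjusted p under 0.05, beside the 9.04% and 6.72% of all genes given above, which hold for the lists below too. Tbx21 differed by -0.19 (SE 0.33) in NK and -0.38 (SE 0.33) in CD8 T cells.

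Of 12 receptor genes for cytokines that act on granzyme genes, Il2ra was higher in CD8 T cells (edgeR adjusted p = 0.00291), with 36.3 to 109 CPM there and 0 to 27.9 CPM in NK libraries. Il12rb2, which encodes a chain of the interleukin 12 receptor, differed by -0.67 (SE 0.64) in NK and -0.20 (SE 0.64) in CD8 T cells with both mutants together. No receptor gene was called by edgeR there, and 2 in NK and 1 in CD8 T cells had an unadjusted p under 0.05. Of 5 other killing molecules and cytokines (Fasl, Tnfsf10, Ifng, Tnf and Lta), none was called by edgeR in these comparisons, and 1 in NK and 0 in CD8 T cells had an unadjusted p under 0.05. Ifng, which encodes interferon gamma, was 158 and 205 CPM in CD8 WT and 351 to 604 CPM in the mutants (log2 1.39, SE 0.64, edgeR adjusted p = 0.724).

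Cma1, a chymase gene next to the granzyme cluster on chromosome 14 (55941451 to 55944675), was higher in NK cells (edgeR adjusted p = 0.0163), and not called without any 1 CD8 library (edgeR adjusted p of up to 0.0750). It had 0.0837 to 52.2 CPM in NK and at most 0.0741 CPM in CD8 libraries. Ctsg and Mcpt8 of the same region were at 0 in all libraries. NK KO library 2 had the highest Cma1 and also the highest sum of mast cell and basophil markers, 170 CPM, all of it from Kit. The part of such cells in the Cma1 difference was not tested.

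The genes most like Gzmb over the 12 libraries, by the root mean square difference of centred log2 CPM, were Pml (0.51), Samhd1 (0.56), Slc2a3 (0.62), Gm12017 (0.63) and Fyttd1 (0.63), where Gzmb itself spread by 1.20. For Gzma they were Dusp3 (1.03), Pygl (1.20), Sco1 (1.23), Fcgr3 (1.24) and Man1c1 (1.30) with a spread of 3.23. For Prf1 they were Hexa (0.47), Agtrap (0.48), Napsa (0.48), Asap2 (0.48) and Inpp5d (0.49) with a spread of 0.94. The points share the libraries and their depth, and likeness was a description without a test.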

How the data were processed

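RNA of 300 sorted cells per library was sequenced after Smart-seq2 amplification. The deposited values are raw counts per gene, which the authors made by trimming reads with Trimmomatic, aligning them with STAR to mm10 (GRCm38) and counting uniquely placed reads over exons. Amplified reads were not counted by molecule, so limits on counts cover counting error only. Symbols, coordinates and coding sequences came from GENCODE M21 and promoters from RefSeq.

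Genes with a mean normalised count of at least 10 were tested in R 4.3.3 with edgeR 4.0.16 (TMM, robust quasi-likelihood F-test, 1 mean per group, all 12 libraries, Benjamini-Hochberg adjustment). CPM are TMM-scaled, and log2 values used a prior count of 2. Per-kilobase levels divide by exon length. All members are described, and of the lists the called genes and defining genes are named. For Gzmb, Gzma and Prf1 the 5 genes most like them are named. Alternatives were RLE size factors, no filter, DESeq2 1.42.0, no robust estimation, the replicate block, 1 cell type only, members left out of library sizes, and leaving out each library. The averaged comparison of mutants with WT was chosen after seeing the data, as were its alternatives. Members and lists were chosen with earlier results of these data known. The test script was tested on simulated data.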

Additional observations from a re-analysis of the deposited data

How the results depend on the processing

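Of the log2 differences of single genes recomputed under the alternatives, 702 kept their direction and their side of the threshold, 64 lost a call, 40 gained one and 13 reversed. All reversals came from leaving out 1 library. Over these refits the KE minus WT difference of Gzmc ran from -3.75 to 0.70 in NK and from -1.19 to 6.68 in CD8 T cells, and the KO minus WT difference in CD8 T cells from -7.59 to 1.20 for Gzma and from -1.09 to 0.17 for Prf1. With both mutants pooled in CD8 T cells the ranges were -5.67 to 0.60 for Gzma, -1.13 to 3.01 for Gzmc and -0.20 to 0.35 for Ctsc, and averaged over cell types -3.09 to 0.046 for Gzma and -1.21 to 1.14 for Gzmc.

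The number of members called depended on the filter and the tool. Without a filter on low counts 6 members were called between cell types on average, 4 in WT, 6 in KO and 7 in KE, and DESeq2 called 6, 2, 4 and 4. For KO against WT, KE against WT and the mutants against each other, the unfiltered fit called 3, 3 and 2 members in NK and 3, 7 and 3 in CD8 T cells, and DESeq2 0, 1 and 0 in NK and 1, 4 and 1 in CD8 T cells. Pooled mutants gave 3 in NK and 6 in CD8 T cells without the filter and 2 and 5 with DESeq2. The difference between cell types in the KO and KE effects gave 2 and 3 without the filter and 1 and 1 with DESeq2. The averaged comparison of mutants with WT, added later, called 5 without the filter, 4 with DESeq2 and 2 with RLE size factors. Leaving out 1 library gave 1 to 4 members between cell types on average, 0 to 1 in WT, 0 to 2 in KE, 0 to 1 for pooled mutants in CD8 T cells and 0 to 1 in the comparison added later.

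Over all genes, edgeR called 594 between cell types on average, the unfiltered fit 1231 and DESeq2 1589. The same 3 counts within genotypes were 103, 537 and 827 (WT), 120, 524 and 806 (KO), and 93, 498 and 801 (KE). Against WT they were 0, 195 and 371 for KO and 0, 256 and 386 for KE in NK, and 7, 124 and 232 for KO and 11, 185 and 327 for KE in CD8 T cells. KO against KE gave 0, 96 and 205 in NK and 0, 82 and 157 in CD8 T cells. Pooled mutants gave 4, 374 and 449 in NK, 27, 209 and 325 in CD8 T cells, and 57, 402 and 449 over both. The difference between cell types gave 1, 131 and 189 for the KO effect and 0, 194 and 278 for the KE effect. With only the 6 libraries of a cell type in the fit, edgeR called 2 genes for pooled mutants in NK and 0 in CD8 T cells, and 0 for KO and 0 for KE against WT in CD8 T cells. Without robust estimation KO against WT in CD8 T cells gave 4. The cause of these differences was not tested.

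The replicate numbers gave no sign of pairing the samples. The deviations of same-numbered libraries correlated at -0.025 to 0.0378 between groups. At the wide spread between libraries this cannot exclude that same-numbered libraries shared a mouse. With the replicate block the count of members called in the added comparison went from 1 to 0, and Gzmb there had an edgeR adjusted p of 0.0730. The block gave 31 genes in that comparison, 17 for pooled mutants in CD8 T cells, 1 in NK, 3 for KO and 4 for KE against WT in CD8 T cells and 0 for the difference between cell types in the KO effect. It changed no other count of members. Of the other calls recomputed, it ended those of Lamp2 in the added comparison (edgeR adjusted p = 0.0725) and of Serpinb1a in mutant NK cells (0.114). A replicate block by genotype and number ended those of Serpinb1a (0.356), Il2ra (0.112) and Cma1 (0.0740) between cell types. The 2 libraries per group and a common coefficient of variation of 109.2% limit all comparisons, and depth limits Gzmd, Gzme, Gzmf and Gzmm, which had few or 0 counts in most libraries.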
